A study of Oryza sativa Indica Group with 2 samples.

Results

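Sucrose and trehalose are non-reducing disaccharides found in plants, and the genes described here are those of the enzymes that make and break them. They were taken as the rows of the deposited gene table whose best Swiss-Prot match has a primary name with the words trehalose, sucrose synthase, sucrose-phosphate, sucrose-phosphatase, invertase or beta-fructofuranosidase, inhibitors left out. That gave 63 of 35677 genes. By the same names 26 belong to the trehalose branch, with 15 trehalose-phosphate synthases (TPS) and 11 trehalose-phosphate phosphatases (TPP). The other 37 form the sucrose branch, with 7 sucrose synthases (SUS), 8 sucrose-phosphate synthases (SPS), 3 sucrose-phosphatases (SPP), 9 cell wall invertases, 2 vacuolar invertases and 8 neutral or alkaline invertases.

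RNA came from Indica rice seedlings at tillering, grown in Wuhan in summer. One library is from the wild type (WT) and 1 from a transgenic line that overexpresses OsGRF7, a growth-regulating transcription factor targeted by the microRNA miR396; that library is labelled GRF7OE-1 and is called GRF7OE here. The labels give neither the promoter of the transgene nor the number of plants per library, and the result of 1 line cannot be told apart from that of the transgene. With 1 library per group no difference below has a replicate check, and the conditions could not be tested.

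In plants, sucrose is made in the cytosol by SPS and SPP acting in sequence, and it is the main form in which carbon leaves the leaf. It is used again through invertases, which hydrolyse it to glucose and fructose, or through sucrose synthase, which cleaves it with UDP to UDP-glucose and fructose. TPS makes trehalose 6-phosphate from UDP-glucose and glucose 6-phosphate, and TPP removes the phosphate. Trehalose itself is scarce in most plants, and trehalose 6-phosphate is known, mainly from Arabidopsis, as a signal of sucrose supply that inhibits the energy-sensing kinase SnRK1.

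The table holds 17021467 reads for GRF7OE and 16824988 for WT. OsGRF7 was at 70.7 FPKM in GRF7OE against 5.10 in WT, so the label of the transgenic library was met by its transcript. FPKM, computed by the authors, corrects reads for library size and for the length of the transcript. Levels of different genes can be set side by side on it only as far as the length used is right. A fold is the plain FPKM ratio, with its 95% exact (Clopper-Pearson) counting interval in brackets. The interval covers counting error only, not the difference between plants. A log2 ratio is log2((GRF7OE FPKM + 1) / (WT FPKM + 1)), which understates differences of low genes, and it was used where the 2 libraries averaged 1 FPKM or more. Of the 63 genes 47 passed that filter, 18 in the trehalose branch and 29 in the sucrose branch. The other 16 were at or under 0.511 FPKM in both libraries, 7 of them with no read in either. Markers of green tissue were high. Of 24 genes for the Rubisco small subunit and chlorophyll a-b binding proteins 20 passed the filter, against 0 of 3 Casparian strip genes of the root endodermis, 3 of 51 seed storage and oil body genes and 1 of 6 pollen genes. The green tissue list summed to 46282 FPKM in GRF7OE against 36248 in WT, with all 20 log2 ratios above 0. Its part in the results below was not tested, and in RNA of mixed cells fewer cells of a type cannot be told apart from less RNA per cell.

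Lower values were common in the trehalose branch. In the trehalose branch 16 of 18 genes had a log2 ratio below 0, against 51.7% of the 23397 genes that passed the filter. In the sucrose branch 17 of 29 did, and 12 were above 0, as were 48.3% of all genes. The median log2 ratio was -0.39 in the trehalose branch, -0.16 in the sucrose branch and -0.01 over all genes. The sucrose branch value turned to 0.02 when the filter was raised to 5 FPKM. Large differences were rare in both. A single gene, sucrose synthase 1, was at least 2-fold higher on the log2 scale, and none was 2-fold lower. Over all genes 3.24% were 2-fold higher and 1.25% 2-fold lower, so 1 and 0 of 47 are near the background. At 1.5-fold 2 genes were higher and 6 lower, where all genes had 9.18% and 4.79%. The counting interval lay wholly above 1 in 6 genes and wholly below it in 22, where all genes had 24.4% and 25.2%. The authors' deposited table calls none of the 63 significant, where it calls 1.75% of the genes that passed the filter. That call needs an FDR no higher than 0.05 together with a 2-fold change, and the p-values behind it compare these libraries, not the conditions.

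**Figure D1:**
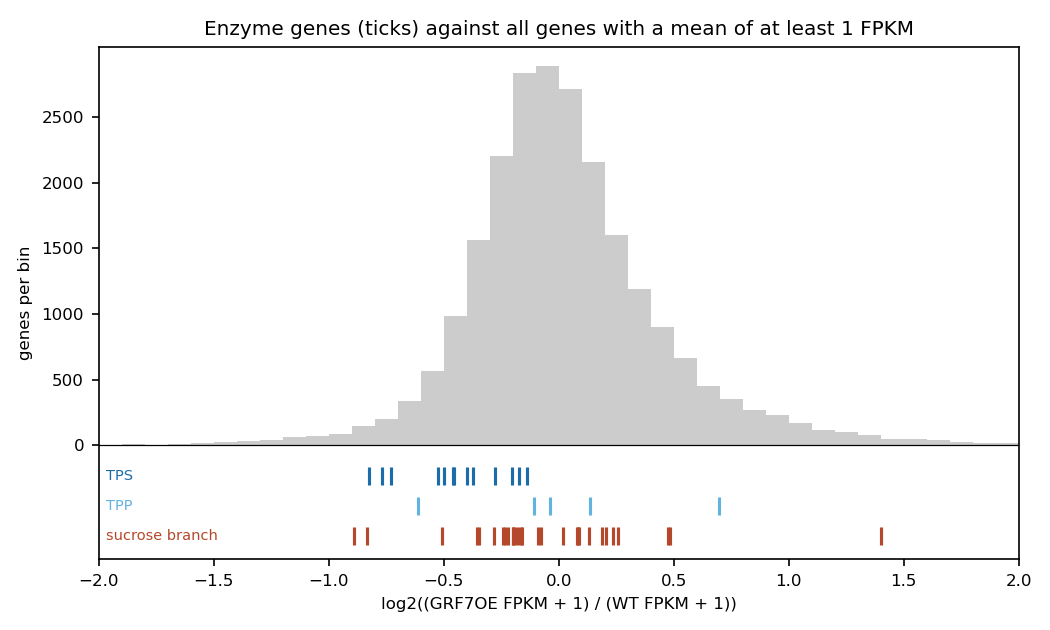
The grey bars count all genes that average 1 FPKM or more by their log2 ratio (x axis, bins of 0.1, shown from -2 to 2), and the ticks under them mark single enzyme genes. The 13 TPS ticks all lie left of 0, the 5 TPP ticks lie on both sides, and the sucrose branch spreads around 0 with SUS1 alone at 1.40.

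The trehalose-phosphate synthases were lower as a family. Of 15 genes 13 passed the filter, and all 13 had a log2 ratio below 0, from -0.82 to -0.14 with a median of -0.45. In 12 of the 13 the counting interval lay wholly below 1, as it did for 25.2% of all genes that passed the filter. For 3 of the 13 the log2 ratio was past 1.5-fold lower, against 4.79% of all genes. Their levels summed to 210 FPKM in GRF7OE against 284 in WT. The remaining 2 genes, OS03G0431550 and OS09G0427800, had no read in either library.

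The rice TPS genes here all have their best Swiss-Prot match in a protein of Arabidopsis. There, TPS1 is the enzyme known to make trehalose 6-phosphate, and TPS5 to TPS11 form a second class that carries a synthase-like and a phosphatase-like part and is thought to act mainly as regulators. A single rice gene, OS05G0518600, had TPS1 as its best match. It was at 9.76 FPKM in GRF7OE against 14.2 in WT, 1.45-fold lower [1.31 to 1.61], on 619 and 858 reads. Its entry is short, with a protein of 232 residues placed in neither a synthase nor a phosphatase group. Entries with both groups have 678 to 913 residues. So the lower levels were seen both in this 1 entry matched to TPS1 and in the larger second class.

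Within the second class the largest differences were in genes of moderate level. OS08G0445700, matched to TPS9, was at 6.96 FPKM in GRF7OE against 13.1 in WT, 1.88-fold lower [1.63 to 2.17]. OS08G0414700, matched to TPS10, was at 6.67 against 12.1, 1.81-fold lower [1.62 to 2.03]. OS05G0128900, also matched to TPS10, was at 8.78 against 15.2, 1.73-fold lower [1.32 to 2.28], on 88 and 146 reads. These 3 are the genes past 1.5-fold. In the authors' deposited table their FDR values are 0.367, 0.205 and 0.765, and the 0.205 is the lowest of any of the 63 genes.

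The most abundant TPS gene by FPKM was OS02G0790500, matched to TPS10, at 44.0 FPKM in GRF7OE against 60.7 in WT, 1.38-fold lower [1.29 to 1.48]. Its entry is short, with a protein of 109 residues, and its rank and share rest on the transcript length used for FPKM. By reads, 1390 and 2012, it stood below OS09G0397300. It held 21.0% of the family's summed FPKM in GRF7OE and 21.3% in WT, so no single gene carried the family sum. OS09G0397300, matched to TPS6, was at 22.4 against 32.7, 1.46-fold lower [1.38 to 1.55] on 1874 and 2697 reads. The other TPS6-type gene, OS03G0224300, stood closer to WT, at 24.8 against 28.7, 1.16-fold lower [1.07 to 1.26]. Genes matched to TPS7 stood nearer to WT than the TPS10-type genes by their medians, -0.28 against -0.46. Their 3 log2 ratios ran from -0.40 to -0.14, and the smallest difference was in OS05G0517200, at 14.1 FPKM against 15.7, 1.11-fold lower [1.02 to 1.20]. The TPS7 median is the value of 1 gene, OS01G0730300. Its FPKM ratio of 0.815 [0.746 to 0.891] was 0.744 in the count columns, further from WT. The 6 genes matched to TPS10 ran from -0.77 to -0.17. Among them OS05G0153500 was within counting error, at 4.48 FPKM against 6.53 on 29 and 41 reads.

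The table also places proteins in orthologous groups, which the choice of genes did not use. Of the TPS genes that passed the filter 6 carry both the synthase and the phosphatase group, 2 the synthase group only and 3 the phosphatase group only, and 2 carry neither. The 3 with the phosphatase group only, OS12G0505800, OS05G0128900 and OS05G0153500, encode proteins of 168 to 211 residues, where those with both groups have 678 to 913. Their log2 ratios were -0.37, -0.73 and -0.46. Without them 10 of 10 TPS genes were still below 0, with a median of -0.43, and in the 6 genes with both groups the median was -0.34. How reads were divided between such related entries is uncertain.

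**Figure D2:**
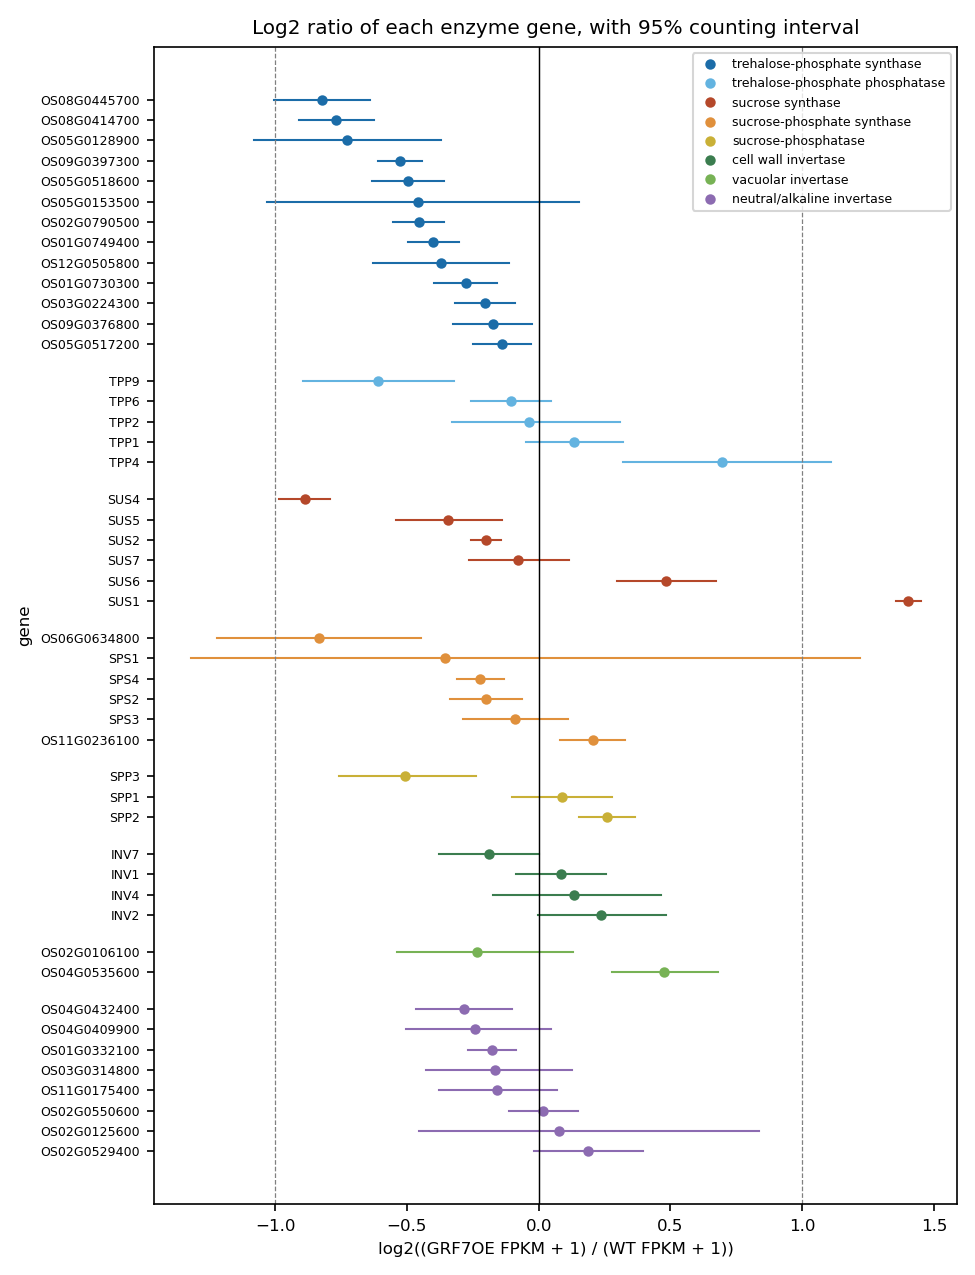
Each point is the log2 ratio (x axis) of 1 gene with a mean of at least 1 FPKM, each bar its 95% counting interval, and colours mark enzyme classes. Dashed lines mark 2-fold. The TPS points run from -0.82 to -0.14, and of all 47 points only that of SUS1 lies past a dashed line.

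The phosphatases that act after TPS were split. Of 11 TPP genes 5 passed the filter, 2 with a log2 ratio above 0 and 3 below, and their summed level was 44.8 FPKM in GRF7OE against 46.9 in WT. The most abundant, TPP6, was at 20.7 against 22.3, within counting error at 1.08-fold lower [0.967 to 1.21]. TPP1, known in rice for its link to cold and salt tolerance, was at 12.6 against 11.4, also within counting error. Outside it were 2 genes that went opposite ways. TPP4 was at 4.29 FPKM in GRF7OE against 2.26 in WT, 1.90-fold higher [1.36 to 2.67], on 104 and 57 reads. TPP9 was at 5.26 against 8.56, 1.63-fold lower [1.29 to 2.07], on 116 and 198 reads. TPP2 was at 1.41 against 1.47, and its log2 ratio of -0.04 turned above 0 in the count columns. TPP7, the rice gene known for germination under water, had no read in either library.

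Sucrose synthases held the largest difference of the 47 genes, and it was in 1 gene. SUS1 (OS03G0401300) was at 348 FPKM in GRF7OE against 131 in WT, 2.66-fold higher [2.57 to 2.74], and its log2 ratio was 1.40. It rested on 12394 and 5448 reads. The ratio was 2.30-fold in the authors' normalised count columns, and the log2 ratio 1.20, still past 2-fold. SUS1 is 1 of 4 of the 47 genes whose FPKM and count ratios differed by more than 0.1 on the log2 scale beyond the median of all genes. In the authors' deposited table SUS1 has a p-value of 0.0647 and an FDR of 0.709. It is the most abundant gene of either branch, and it made up 76.9% of the family's summed FPKM in GRF7OE and 49.6% in WT. These shares rest on the transcript length used for FPKM, and the entry of SUS1 gives a protein of 132 residues. In WT it had 5448 reads against 4954 for SUS2, where FPKM gave 131 against 79.9.

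Most of the family did not share that direction. Of the 6 SUS genes that passed the filter 4 had a log2 ratio below 0. Of these 4, SUS7 lay within counting error, at 1.07-fold lower [0.908 to 1.26]. SUS4 (OS03G0340500) was at 21.4 FPKM in GRF7OE against 40.5 in WT, 1.89-fold lower [1.76 to 2.03], and its log2 ratio of -0.89 was the lowest of all 47 genes. SUS2, the second most abundant, was at 69.5 against 79.9, 1.15-fold lower [1.10 to 1.20]. SUS6 was higher, at 6.41 against 4.30, 1.49-fold [1.28 to 1.73]. The family sum went from 264 FPKM in WT to 452 in GRF7OE. Without SUS1 it was 133 in WT and 104 in GRF7OE, the opposite direction. SUS5 and SUS7 were at 2.74 and 4.24 FPKM in GRF7OE and 3.75 and 4.53 in WT. Both encode 844 residues, and how reads were divided between these related genes is uncertain. SUS3 had 1 read in GRF7OE and 0 in WT, under the floor of 3 reads at which a fold is given.

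**Figure D3:**
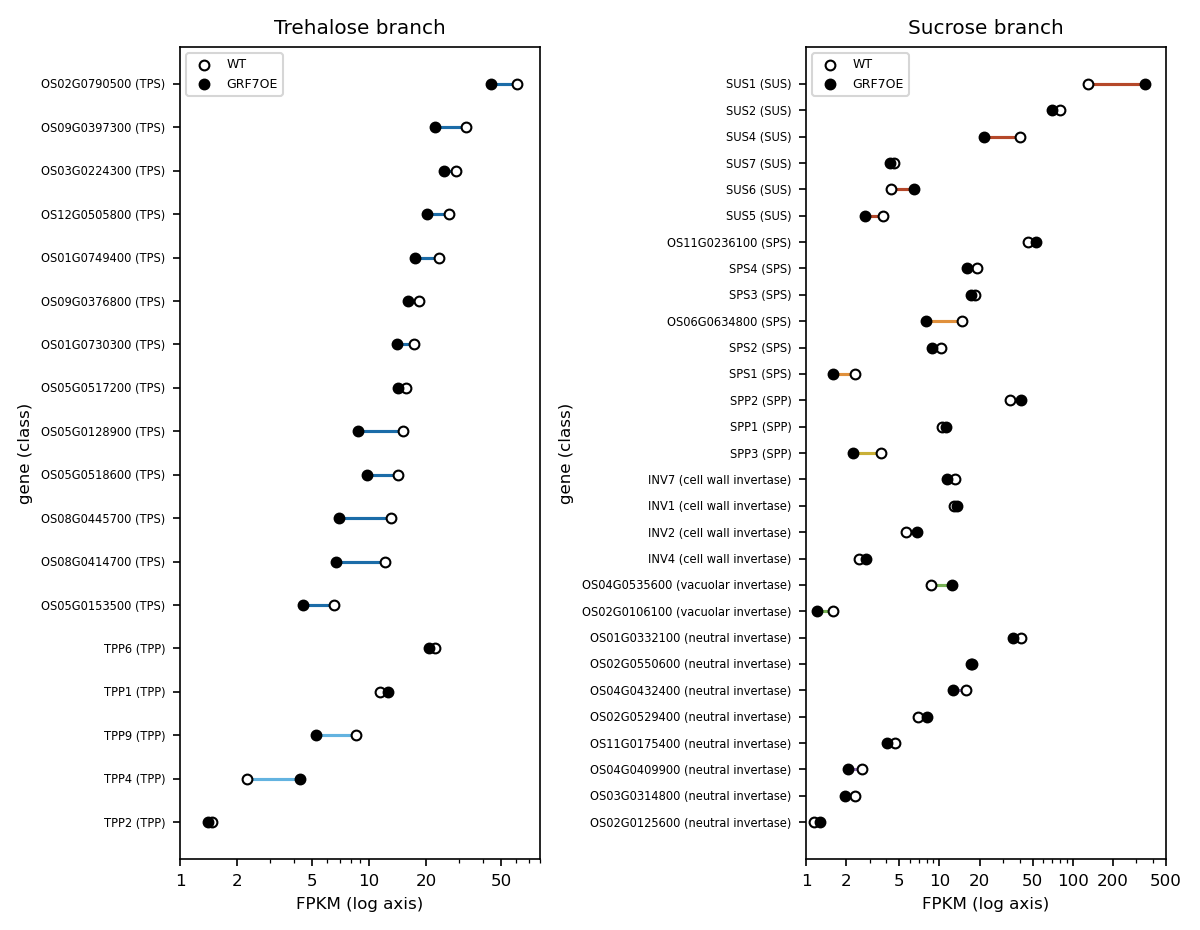
Open circles are WT and filled circles GRF7OE, with FPKM on a log axis, for the 18 trehalose branch genes (left) and the 29 sucrose branch genes (right) that passed the filter. In each of the 13 TPS lines the filled circle is left of the open one, while SUS1 shows the widest gap to the right, from 131 to 348.

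The enzymes that make sucrose were close to WT in total. The sum of SPS and SPP levels was 159.6 FPKM in GRF7OE against 159.5 in WT. That near equality depends on the scaling. With both libraries scaled to the same FPKM sum, the log2 ratio of the summed level went from -0.08 to -0.17 in SPS. In SPP it went from 0.18 to 0.08. The highest SPS gene by FPKM, OS11G0236100, matched to SPS5, was at 53.1 against 45.9, 1.16-fold higher [1.06 to 1.26]. It shares its MSU identifier with OS11G0236200, which had 4 and 6 reads. It held 50.5% of the summed SPS level in GRF7OE and 41.2% in WT. Its rank and share rest on the transcript length used for FPKM. With an entry of 509 residues it had 1078 and 991 reads, where SPS4, of 1066 residues, had 1677 and 1879. The next by FPKM were lower or within error, SPS4 at 16.1 against 19.0, 1.18-fold lower [1.10 to 1.26], and SPS3 at 17.3 against 18.5. OS06G0634800, whose best match is also SPS5, was at 7.90 against 14.9, 1.88-fold lower [1.40 to 2.56], on 68 and 138 reads. Of the 6 SPS genes that passed 5 had a log2 ratio below 0, and in the count columns 4 did, since SPS3 turned. SPS1 passed the filter on 4 and 6 reads, in an entry with a protein of 98 residues, and its interval of 1.46-fold lower [0.345 to 7.01] holds differences in both directions.

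The sucrose-phosphatases, which complete sucrose synthesis, differed in both directions. SPP2 held most of the class at 40.9 FPKM in GRF7OE against 34.0 in WT, 1.20-fold higher [1.12 to 1.30]. SPP3 was at 2.26 against 3.64, 1.61-fold lower [1.24 to 2.09], on 100 and 152 reads. SPP1 was at 11.2 against 10.4, within counting error.

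Invertases showed small differences or none beyond counting error. Of 19 genes 14 passed the filter, 7 above 0 and 7 below, and in 11 the counting interval held 1. After scaling to equal FPKM sums the split was 5 above and 9 below. Their sum was 132 FPKM in GRF7OE against 136 in WT. Cell wall invertases, which split sucrose unloaded into the apoplast, lay within counting error in all 4 genes that passed. INV1 was at 13.6 against 12.8, INV7 at 11.3 against 13.0, and INV4 at 2.83 against 2.49. INV2, the invertase of the rice grain filling mutant gif1, was at 6.82 against 5.64, 1.21-fold higher [0.998 to 1.47]. The log2 ratio of INV1 was among those that turned below 0 under that scaling. Of the other 5 cell wall genes INV3 and INV6 had no read, and the rest had at most 3 reads.

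The vacuolar pair, which set the hexose content of growing cells, held the invertase with the largest log2 ratio. OS04G0535600 was at 12.3 FPKM in GRF7OE against 8.57 in WT, 1.44-fold higher [1.24 to 1.67], on 423 and 296 reads. OS02G0106100 was at 1.20 against 1.59, within counting error. Neutral and alkaline invertases, which act mainly in the cytosol and plastids, were measured in all 8 genes, with log2 ratios from -0.28 to 0.19. The highest, OS01G0332100, was at 35.9 against 40.7, 1.13-fold lower [1.06 to 1.21]. OS04G0432400 was at 12.7 against 15.7, 1.23-fold lower [1.08 to 1.41], and the other 6 lay within counting error. One of these, OS02G0550600 at 17.4 against 17.2, turned from a log2 ratio of 0.02 to -0.07 after scaling to equal FPKM sums.

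**Figure D4:**
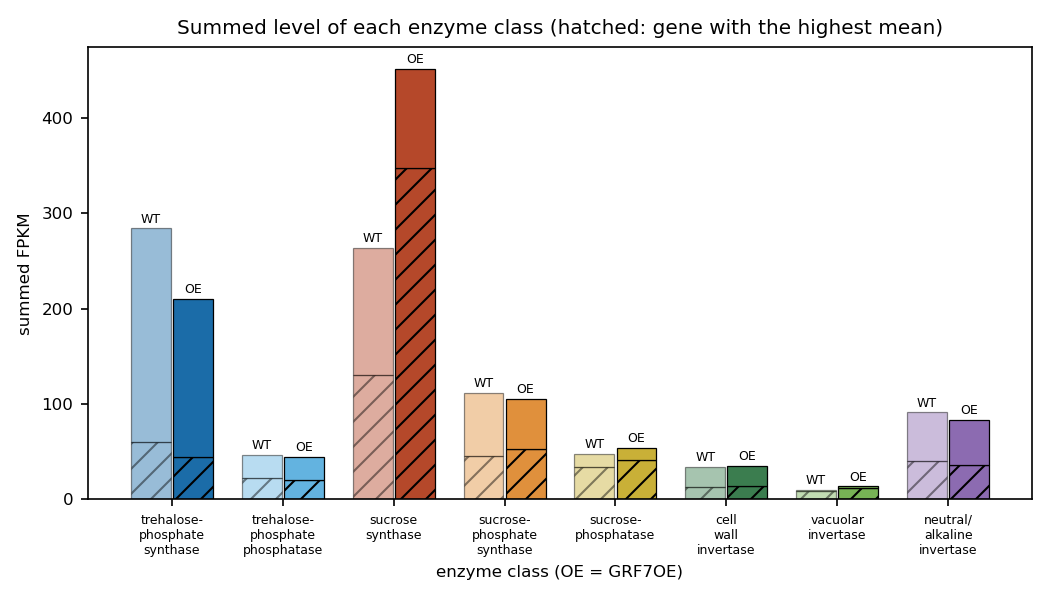
Bars give the summed FPKM of each enzyme class in WT (pale) and GRF7OE (OE, full colour), and the hatched part is the gene with the highest mean in the class. TPS goes from 284 to 210 with a hatched part of 21.3% and 21.0%, while SUS goes from 264 to 452 through its hatched part, SUS1.

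Genes around these branches were counted from lists defined by enzyme name. Of 67 such genes 54 passed the filter, with 26 above 0 and 28 below and a median of -0.04, which turned to 0.01 in the count columns. Over all genes that passed, 48.3% were above 0 and 51.7% below, the shares to set beside each short list here. On the log2 scale 2 were at least 2-fold higher and 0 lower, near the 3.24% and 1.25% of all genes. Of the 2, hexokinase-1 had 1 read in WT and passed the filter only through GRF7OE. Trehalase, which splits trehalose to glucose, has 1 gene, at 2.70 FPKM in GRF7OE against 2.08 in WT, 1.30-fold higher [0.979 to 1.73]. UDP-glucose pyrophosphorylase interconverts UDP-glucose and glucose 1-phosphate. It passed the filter in 1 of 3 genes, OS09G0553200, at 132 against 112, 1.18-fold higher [1.13 to 1.23].

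The genes past 2-fold on the log2 scale were a fructokinase and a hexokinase. Fructokinase-2 (OS08G0113100), which phosphorylates the fructose that sucrose synthase and invertases release, was at 218 FPKM in GRF7OE against 106 in WT, 2.06-fold higher [1.95 to 2.17]. Its log2 ratio of 1.03 fell short of 2-fold with both libraries scaled to the same FPKM sum and in the count columns. Fructokinase-1 was at 42.4 against 27.7, 1.53-fold higher [1.38 to 1.69]. The list of 12 fructokinase names that passed includes 8 genes of 6-phosphofructokinase, a glycolytic enzyme. Without these, 3 of 4 were above 0, with a median of 0.34. Of 9 hexokinases, which phosphorylate glucose and in part sense it, 6 were above 0. Hexokinase-1 was at 4.12 FPKM in GRF7OE against 0.0407 in WT, on 94 reads against 1, and the authors' deposited table calls it significant. Its WT value is under the floor of 3 reads, so no fold is given, and it passed the filter only through GRF7OE. Hexokinase-8 and hexokinase-9 were 1.93-fold lower [1.56 to 2.40] and 1.85-fold lower [1.48 to 2.32].

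SnRK1, the kinase complex that trehalose 6-phosphate inhibits, had more subunit genes below 0 than above. Of 15 genes whose names give them as its subunits or their relatives 11 passed the filter, 9 below 0 and 2 above, with a median of -0.39, or -0.23 in the count columns. In 6 of the 11 the counting interval lay wholly below 1, and in 5 it held 1. Over all genes that passed, 51.7% were below 0, 25.2% had an interval wholly below 1, and the median was -0.01. The 2 above 0 lay within counting error. They were OS05G0530500, matched to the catalytic subunit, at 14.4 against 13.7, and a beta-3 subunit gene (OS09G0364900) at 34.0 against 31.7. None of the 11 was past 2-fold on the log2 scale. By the plain FPKM ratio OS07G0194100 was, at 1.01 against 2.28, 2.26-fold lower [1.48 to 3.54] on 32 and 74 reads. Its best match is a catalytic subunit at 66% similarity, where OS03G0289100 has 82%, so it may be a related kinase. With both libraries scaled to the same FPKM sum 10 of the 11 were below 0, and in the count columns 8 were, 1 of them 2-fold lower. A beta-1 subunit gene (OS05G0491200) was at 30.4 FPKM in GRF7OE against 51.4 in WT, 1.69-fold lower [1.55 to 1.84]. A gamma-1 subunit gene (OS04G0382300) was at 54.8 against 84.6, 1.55-fold lower [1.46 to 1.64]. The catalytic gene with the highest level, OS03G0289100, was at 23.3 against 31.2, 1.34-fold lower [1.21 to 1.48], and 1.18-fold lower in the count columns, outside that interval.

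Starch genes stayed nearer to WT. Of 8 starch synthases 6 were below 0, or 7 after scaling to equal FPKM sums, with a median of -0.15, and of 5 ADP-glucose pyrophosphorylase subunits 4 were above 0, with a median of 0.12. Branching enzymes had 3 of 4 above 0, and 2 of 4 after scaling to equal FPKM sums. Of 3 fructose-1,6-bisphosphatases, which supply hexose phosphate for sucrose and starch, 2 were above 0, and the chloroplast gene was at 236 FPKM against 194, 1.22-fold higher [1.17 to 1.27].

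**Figure D5:**
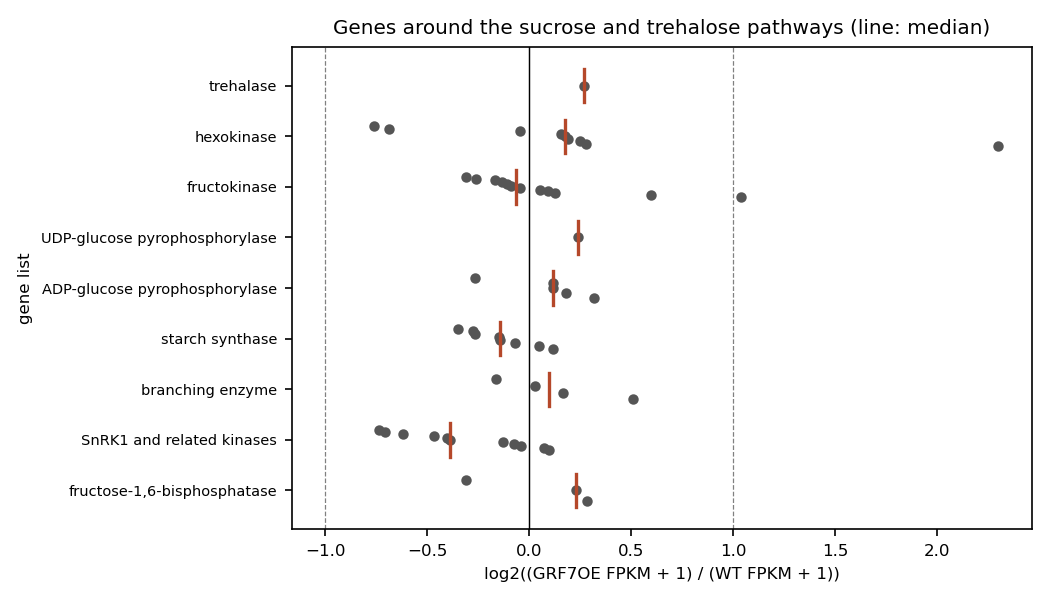
Each point is the log2 ratio (x axis) of 1 gene in a list of neighbouring enzymes or SnRK1 subunits with a mean of at least 1 FPKM, and red lines are list medians. Dashed lines mark 2-fold. Hexokinase-1 at 2.30, with 1 read in WT, and fructokinase-2 at 1.03 are the points past 2-fold on this scale. The SnRK1 median lies at -0.39.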

How the data were processed

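RNA of each sample (3 µg, TRIzol, DNase-treated) went into libraries by standard Illumina steps, per the labels' protocols. Bowtie and Cuffdiff were used, per the submitters' processing notes; neither their versions nor a genome build is given in the sources used here. One table of 35677 genes was deposited, and its FPKM columns were taken as the authors made them. Its count columns hold the authors' normalised signal, stepping by 0.963 (GRF7OE) and 0.954 (WT) for 1 read. Among values above 0 and below 10000, 99.3% and 99.2% came out as whole reads within 0.05. The deposited p-value and FDR columns are the authors' comparison of the 2 libraries. The deposited log2 ratio, checked only, equals that of the FPKM columns in 28656 of 28656 genes above 0 in both.

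The members and lists were chosen with earlier results of these data known. Named by rule were genes past 2-fold and, in each class, the gene with the highest mean and the 3 with the largest absolute log2 ratio; other genes were picked after their values were seen. Rice symbols need a Swiss-Prot similarity of at least 95%. Calls and intervals were run on simulated reads with 200 genes changed. Those reads held counting error only, so the run cannot show how far the calls hold between plants. Pseudocounts, filters, scalings, count columns, fold sizes, the name rule and entries per MSU identifier were varied. Software was Matplotlib 3.10.9, pandas 2.3.3, SciPy 1.17.1, NumPy 2.4.6 and Python 3.11.15.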

Additional observations from a re-analysis of the deposited data

How the results depend on the processing

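Counts of 1 gene past 2-fold higher and 0 past 2-fold lower held under pseudocounts of 0.1 and 0.5, no filter, a mean of at least 5 FPKM, both scalings, the count columns and 1 entry per MSU identifier. At 1.5-fold it was 2 higher and 6 lower, at 4-fold 0 higher and 0 lower, and without sucrose synthase 1, an alternative chosen after seeing the data, 0 higher. The same settings other than the fold sizes, run on the TPS genes after seeing the data, left 13 of 13 genes with reads below 0. The trehalose branch median ran from -0.47, with both libraries scaled to the same FPKM sum, to -0.25, with no filter on low values. The sucrose branch median ran from -0.22 to 0.02. For the 28 genes named by rule, 188 of 190 values stayed inside the main counting interval. The exceptions were SUS1, at 1.31 with the same FPKM sum and 1.20 in the count columns. The FPKM columns summed to 862935 in GRF7OE and 809697 in WT. Under equal sums the log2 ratio of the class sum left its counting interval in TPS, SUS, SPS, SPP and neutral invertases. It went from -0.44 to -0.53 in TPS, from 0.78 to 0.685 in SUS and from -0.13 to -0.22 in neutral invertases. In cell wall invertases it turned from 0.05 to -0.04, inside its interval. Searching the rule words in the whole description added trehalase, for 64 genes. Genes under 10 reads per library, as SPS1, allow no direction. No paired analysis was possible because each group has 1 library.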
